A study of Mus musculus with 8 samples.

Results

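Nuclear RNA of 4 genes of the Reelin pathway, Reln, Vldlr, Lrp8 and Dab1, was followed through the mouse striatum, over every annotated cluster of nuclei and 8 inbred strains. They are 4 of 32285 genes in the matrices, taken by name. Reln was chosen by its measured strain pattern between Drd1+ and Drd2+ neurons, so its values in those clusters are given as a description, with no test. The other members entered with it as its receptors and adaptor. Nuclei came from frozen striatum of 32 mice, 12 weeks of age, 4 of each strain: the laboratory strains C57BL/6, A/J, 129S1/SvImJ, NZO/HlLtJ and NOD/ShiLtJ, and WSB/EiJ, PWK/PhJ and CAST/EiJ, which are inbred from wild mice. No treatment or engineered allele is named in the labels, which set the groups by strain. The labels write C57BL/6J where the annotation table writes C57BL_6NJ, and NZO/H1LtJ where it writes NZO_HlLtJ, so these strains are called C57BL/6 and NZO/HlLtJ. Nuclei of 1 mouse of each strain were pooled before capture in each of 4 batches, so a mouse is named by its strain and batch. Each batch held male and female mice, and the sex of each mouse was not used, so a difference in sex between strains was not tested.

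Reelin, the product of Reln, is a large secreted glycoprotein. It binds the lipoprotein receptors encoded by Vldlr and Lrp8 (also called ApoER2), which cluster and pass the signal to Dab1, an adaptor bound to their cytoplasmic tails. Src family kinases then phosphorylate Dab1, which recruits further adaptors and phosphatidylinositol 3-kinase and is afterwards degraded. The pathway is known for placing migrating neurons during brain development. In the adult brain it acts on synapses and dendritic spines, and Reln is made there by interneurons and by some projection neurons. In the striatum most neurons are projection neurons with either the dopamine receptor Drd1 (direct pathway) or Drd2 (indirect pathway).

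In RefSeq annotation of GRCm38.p6, Reln lies on the minus strand of chr5:21884454-22344705, Vldlr at chr19:27216480-27254231, Lrp8 at chr4:107802200-107876840 and Dab1 at chr4:103619500-104744844. The deposited peak list is 1 list of 291715 open chromatin regions for all batches on mm10, the same assembly under another name. It places 87 peaks in the gene body of Reln, 9 in Vldlr, 18 in Lrp8 and 234 in Dab1. These counts went with gene length, at 18.9, 23.8, 24.1 and 20.8 peaks per 100 kb in the same order. The 250 bases before a gene start are shown for Reln and for the outermost start of Dab1, because they differ in base composition and in the peak list. Capitals mark the GC box GGGCGG, the letters bound by factors of the Sp family, searched on both strands as the only motif.

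Reln, chr5:22344706-22344955, minus strand: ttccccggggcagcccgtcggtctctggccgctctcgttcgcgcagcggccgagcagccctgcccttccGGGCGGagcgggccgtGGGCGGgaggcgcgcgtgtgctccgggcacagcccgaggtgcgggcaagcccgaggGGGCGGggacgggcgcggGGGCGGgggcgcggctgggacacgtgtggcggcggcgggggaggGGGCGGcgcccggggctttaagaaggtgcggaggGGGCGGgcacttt
Dab1, chr4:103619250-103619499, plus strand: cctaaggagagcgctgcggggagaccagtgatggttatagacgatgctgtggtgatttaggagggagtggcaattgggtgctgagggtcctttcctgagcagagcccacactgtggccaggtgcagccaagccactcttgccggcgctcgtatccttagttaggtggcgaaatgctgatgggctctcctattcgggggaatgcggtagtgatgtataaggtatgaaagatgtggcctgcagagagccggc

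The window of Reln held 6 GC boxes, all on the strand of the gene, was 80% G or C with 37 CpG, and lay inside a peak at chr5:22344360-22345358. The window of Dab1 held no GC box, was 56.4% G or C with 10 CpG, and no peak overlapped it. Of 32817 such windows in the RefSeq table, 32.7% held a GC box on either strand, and the median was 52.4% G or C. Taken at 300 bases, 53.1% of windows overlapped a peak. A further start of Dab1, inside the gene, was more like that of Reln. Its window at chr4:104367288-104367537 held 1 GC box, was 78% G or C with 40 CpG, and a peak at chr4:104367585-104368583 began just past its end. The windows of Lrp8 and Vldlr are not shown. A match is a description of the letters, and the peak list carries no signal by strain or cluster.

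The authors' filters kept 55672 annotated nuclei of 89339 barcodes in 18 clusters, 944 to 4416 nuclei per mouse. Median depth was 4329 unique molecular identifiers (UMIs, counted RNA molecules) per nucleus, and 3232 to 4931 over batches, batch 3 being the shallowest. Each mouse gave 1 summed library per cluster, of 1710451 to 9416806 counts in Drd1+ neurons and 1251786 to 6803437 in Drd2+ neurons. Of 54141 barcode sequences, 1517 occurred in more than 1 pool. The cluster names held for the pair of main neuron clusters: Drd1 was at 219 CPM (counts per 1000000 counts of the library) in Drd1+ and 10.2 CPM in Drd2+ neurons, and Drd2 at 11.9 and 437 CPM. The cluster named Drd1+ neuron_2 had the highest level of all 5 listed markers of eccentric projection neurons, and the cluster named Unknown of all 3 listed neuroblast markers.

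Reln was highest in Drd1+ neurons, at 536 ± 76.0 CPM of the library (SD, n = 32 mice), and 247 ± 73.2 CPM in Drd2+ neurons (n = 32). Mural cells stood at 250 ± 196 (n = 20), followed by ependyma at 168 ± 108 (n = 12), endothelium at 165 ± 125 (n = 29), Nxph1+ interneurons at 104 ± 99.8 (n = 32) and the cluster Polydendrocyte/Oligodendrocyte, called the precursor cluster here, at 79.3 ± 90.7 CPM (n = 27). Below the level in Drd1+ neurons, each neighbour in this order lay within the spread of the next. Drd1+ neuron_2, the eccentric projection neurons, held 43.5 ± 39.2 CPM (n = 32), although they carry Drd1. The other clusters with at least 12 mice, which are both clusters of Slc17a7+ excitatory neurons, astrocytes, oligodendrocytes, macrophages and the cluster Unknown, held 6.23 to 16.4 CPM. After each nucleus was thinned to 2000 UMIs, 58.3% of 15260 Drd1+ nuclei and 32.2% of 13038 Drd2+ nuclei had a Reln UMI. Oligodendrocytes, taken as the background from free RNA, had one in 2.23% of 3311 nuclei (exact 95% interval 1.76% to 2.80%, median 1640 UMIs against 6505 in Drd1+ neurons before thinning). Drd1+ neuron_2 stood at 4.91% (3.84% to 6.17%) and Nxph1+ interneurons at 9.41% (7.73% to 11.3%), both above that interval. Intervals cover counting error only. Nuclei with fewer than 2000 UMIs were left out, so 3311 of 12066 oligodendrocytes remained. Whether their share measures free RNA was not tested. Listed markers of Cajal-Retzius cells, the classic Reelin source of the developing cortex, summed to 1.57 CPM in Drd1+ and 1.97 in Drd2+ neurons.

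**Figure D1:**
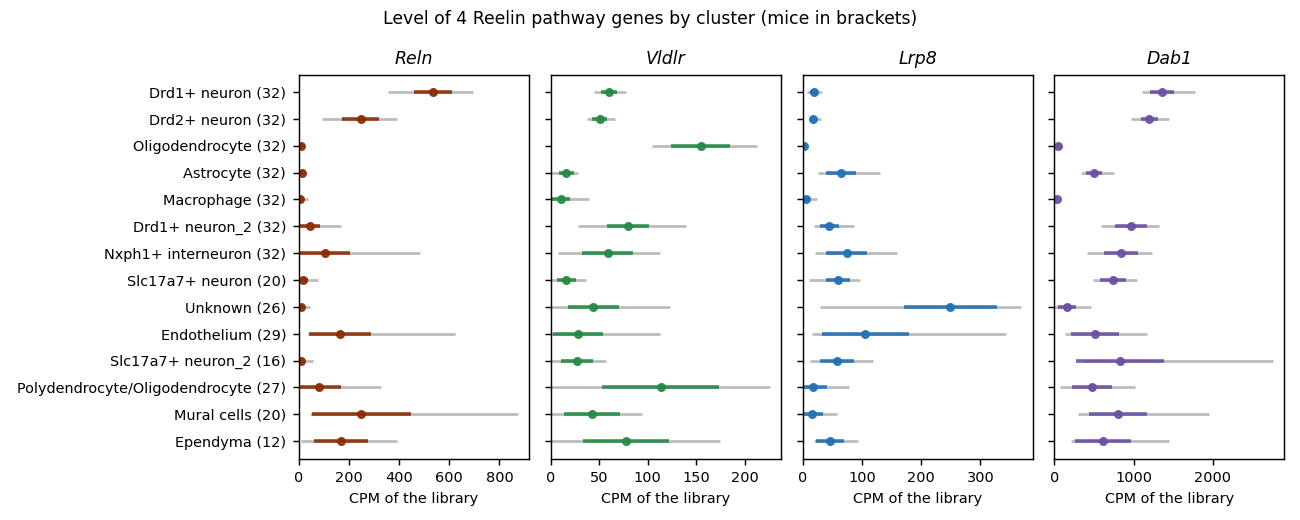
Level of Reln, Vldlr, Lrp8 and Dab1 (CPM of the library, linear axes that differ between genes) in the 14 clusters with libraries from at least 12 mice. Points are means over mice, thick lines 1 SD on each side, thin lines the range, and the number of mice is in brackets. Reln stands highest in Drd1+ neurons, Vldlr in oligodendrocytes, Lrp8 in the cluster Unknown and Dab1 in Drd1+ and Drd2+ neurons.

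In endothelium, mural cells, ependyma and the precursor cluster, Reln was higher in nuclei that also held RNA of projection neurons. Nuclei were split by whether they held a UMI of Ppp1r1b, Bcl11b, Rgs9 or Pde10a, markers of all striatal projection neurons. In endothelium, 308 nuclei without such a UMI held Reln at 9.11 CPM and 543 with one at 185 CPM. In mural cells the values were 7.28 CPM (1 count in 117 nuclei) and 299 CPM, and in ependyma 35.4 and 204 CPM. In the precursor cluster, where the precursor markers Pdgfra and Vcan stood at 298 and 905 CPM, 201 nuclei without a marker UMI held no Reln count and 287 with one held 150 CPM. In the 3 large clusters outside neurons the classes lay closer, at 9.93 without and 13.4 CPM with a marker UMI in oligodendrocytes, 11.2 and 12.8 in astrocytes, and 8.71 and 5.07 in macrophages. The summed level of the 4 markers was 3350 CPM in mural cells, 1687 CPM in endothelium and 1744 CPM in ependyma, against 319 CPM in oligodendrocytes, 4418 CPM in Drd1+ and 4737 in Drd2+ neurons. In Nxph1+ interneurons the same split gave 86.4 and 107 CPM of Reln, and in Drd1+ neuron_2, with 47 nuclei without a marker UMI, 52.4 and 41.9 CPM. A nucleus of higher depth is likelier to hold a marker UMI, and the part of projection neuron RNA in these counts was not tested.

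**Figure D2:**
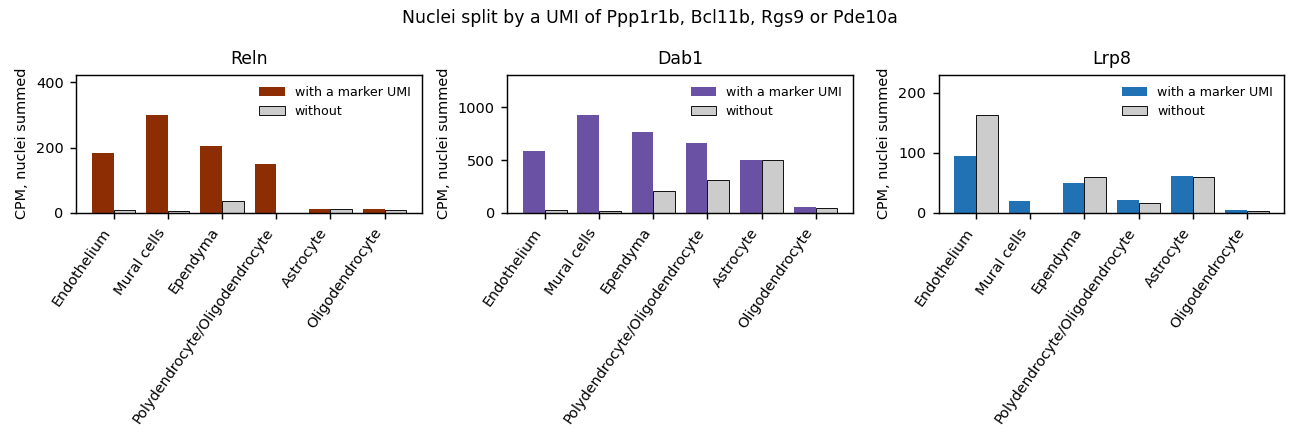
Level of Reln, Dab1 and Lrp8 (CPM, counts of all nuclei of a class summed, linear axes from 0) in 6 clusters outside neurons, for nuclei with (coloured) and without (grey) a UMI of Ppp1r1b, Bcl11b, Rgs9 or Pde10a. Reln and Dab1 of endothelium and mural cells stand in the nuclei with a marker UMI, Dab1 of astrocytes is alike in both classes at 501 and 505 CPM, and Lrp8 of endothelium is higher without one.

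The receptors had other distributions. Vldlr, which also binds lipoproteins rich in triglyceride, was at 155 ± 30.1 CPM in oligodendrocytes (n = 32) and 113 ± 60.2 in the precursor cluster (n = 27), then 79.6 ± 22.0 in Drd1+ neuron_2 (n = 32), 77.5 ± 44.0 in ependyma (n = 12), 60.3 ± 8.13 in Drd1+ and 50.5 ± 7.46 CPM in Drd2+ neurons (n = 32 each). Nxph1+ interneurons lay between the last pair at 58.7 ± 26.0 CPM (n = 32), and every neighbour in this order lay within the spread of the next. Taken within a mouse, the log2 difference of Drd2+ from Drd1+ neurons was −0.25 ± 0.24 (n = 32), from −0.73 to 0.21. The lowest of the clusters with at least 12 mice were astrocytes and Slc17a7+ neurons, both at 16.2, and macrophages at 10.4 CPM. In thinned nuclei 25.2% of oligodendrocytes held a Vldlr UMI, against 2.88% of astrocytes and 2.97% of macrophages. The oligodendrocyte level was as high in nuclei without a projection neuron marker UMI, at 162 CPM, as in those with one, at 149 CPM.

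Lrp8 was highest in the cluster Unknown, whose leading fixed markers are those of neuroblasts, at 250 ± 78.7 CPM (n = 26). Among the clusters with at least 12 mice, endothelium followed at 106 ± 73.4 (n = 29), Nxph1+ interneurons at 74.6 ± 34.9 (n = 32), astrocytes at 64.1 ± 25.3 (n = 32) Slc17a7+ neurons at 59.5 ± 20.4 (n = 20), Slc17a7+ neuron_2 at 57.7 ± 29.1 (n = 16) and ependyma at 46.3 ± 24.1 CPM (n = 12). Drd1+ and Drd2+ neurons stood at 18.6 ± 6.63 and 17.3 ± 4.52 CPM, which did not differ beyond their spread. Macrophages at 5.29 ± 7.004 and oligodendrocytes at 2.89 ± 2.27 CPM were lowest (n = 32 each). Drd1+ neuron_2, at 45.3 ± 16.5 CPM, lay above Drd1+ neurons by more than the spread. Endothelial Lrp8 was higher in nuclei without a projection neuron marker, at 163 CPM, than in those with one, at 94.2 CPM.

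Dab1 was at 1363 ± 151 CPM in Drd1+ and 1201 ± 107 in Drd2+ neurons, then 969 ± 207 in Drd1+ neuron_2 and 839 ± 211 in Nxph1+ interneurons (n = 32 each). Slc17a7+ neuron_2 at 830 ± 556 (n = 16), mural cells at 799 ± 365 (n = 20), Slc17a7+ neurons at 743 ± 162 (n = 20), ependyma at 608 ± 354 (n = 12) and endothelium at 516 ± 301 CPM (n = 29) followed, each within the spread of the next. Astrocytes held 497 ± 98.6 CPM, with 505 CPM in nuclei without a projection neuron marker and 501 CPM with one. The cluster Unknown, highest for Lrp8, held 164 ± 114 CPM of Dab1 (n = 26), oligodendrocytes 46.7 ± 17.5 and macrophages 30.7 ± 18.9 CPM. Oligodendrocytes thus combined the highest Vldlr level of these clusters with the second lowest Dab1 level. Endothelial and mural Dab1 followed Reln, with 28.5 and 14.6 CPM in nuclei without a marker UMI against 586 and 925 CPM with one. Dab1 was also lower without a marker UMI in ependyma (209 against 762 CPM) and in the precursor cluster (312 against 658 CPM). The 4 smallest clusters had libraries from 2 or 3 mice only and are given as sums over all their nuclei, with exact Poisson intervals. Chat+ interneurons, the cholinergic cells, held Lrp8 at 89.2 CPM (71.4 to 110, 120 nuclei), Reln at 24.9, Vldlr at 12.4 and Dab1 at 608 CPM. Sst+ interneurons held Reln at 78.4 CPM (59.8 to 100.9, 165 nuclei), Vldlr at 58.8, Lrp8 at 65.3 and Dab1 at 465 CPM. The cluster Unknown_2 held Vldlr at 153 CPM (104 to 217, 57 nuclei), Reln at 69.1, Lrp8 at 64.2 and Dab1 at 188 CPM, and fibroblasts held Dab1 at 90.6 and the others at 11.8 to 35.5 CPM. Levels are not compared between genes, since nuclear counts were not scaled to gene length.

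Reln was lower in Drd2+ neurons of PWK/PhJ than in any other mouse. The following values are CPM over the TMM-scaled library total. In Drd2+ neurons the PWK/PhJ mice held 144, 99.4, 115 and 84.8 CPM in batches 1 to 4, a mean of 111 ± 25.2 (SD, n = 4). The other 28 mice held 168 to 409 CPM, with strain means from 211 ± 34.1 in CAST/EiJ to 319 ± 62.7 in C57BL/6, so the groups did not overlap. In Drd1+ neurons the same PWK/PhJ mice held 588, 465, 538 and 398 CPM (497 ± 83.3), inside the range of the other mice, 357 to 733 CPM, and the strain means ran from 436 ± 44.9 in WSB/EiJ to 618 ± 87.0 in C57BL/6. Within a mouse, the log2 difference of Drd2+ from Drd1+ neurons was −2.03, −2.22, −2.22 and −2.22 in PWK/PhJ (mean −2.17 ± 0.10). In the other mice it was −1.68 to −0.49, with means from −1.38 ± 0.20 in CAST/EiJ to −0.72 ± 0.17 in WSB/EiJ. Drd2+ neurons held less Reln than Drd1+ neurons in all 32 mice. PWK/PhJ lay −1.14 from the mean of the other strains on this log2 scale, and −1.17 to −1.11 under the alternative settings tried. These settings reuse the counts by which Reln was chosen, so they are a description only.

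**Figure D3:**
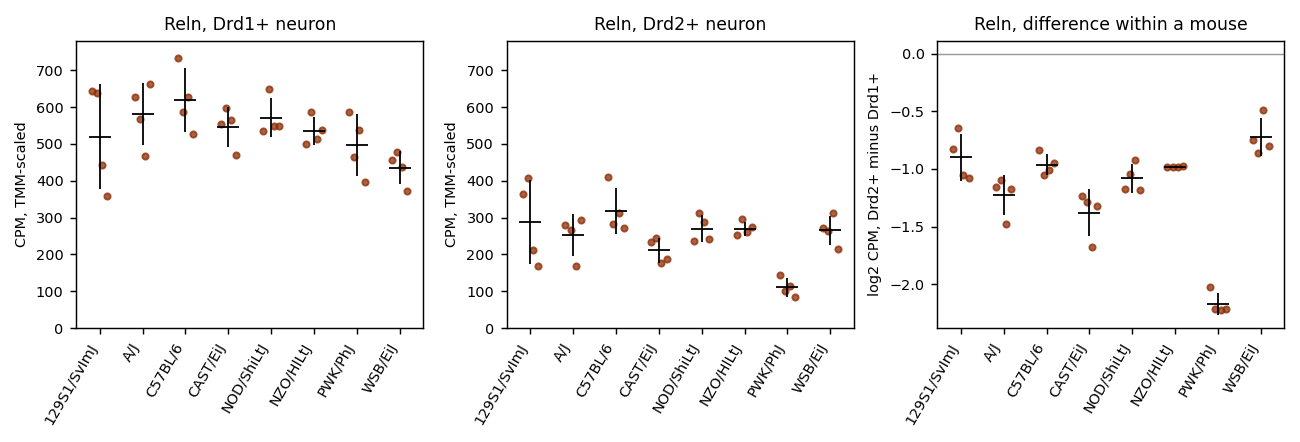
Reln by strain in Drd1+ and Drd2+ neurons (TMM-scaled CPM, axes from 0) and the difference within a mouse (log2 CPM of Drd2+ minus Drd1+). Points are the 4 mice of a strain, lines the mean and 1 SD. PWK/PhJ is low in Drd2+ neurons and lies among the other strains in Drd1+ neurons.

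The same Reln counts, by which the gene was chosen, are given here as nuclei with a UMI and UMIs per such nucleus. Both measures fall when the level falls, so they are not separate evidence for the lower level in PWK/PhJ. Of Drd2+ nuclei thinned to 2000 UMIs, 17.3% ± 1.51 had a Reln UMI in PWK/PhJ (18.5%, 17.9%, 17.6% and 15.1%, n = 4), and 29.2% to 40.2% in the means of the other strains. Those nuclei held 1.28 ± 0.0772 Reln UMIs each in PWK/PhJ, against strain means of 1.39 to 1.55. In Drd1+ nuclei the share was 58.5% ± 3.70 in PWK/PhJ, with the means of other strains at 54.2% to 63.2%. Without thinning the PWK/PhJ share in Drd2+ nuclei was 34.3%, and thinned to 1000 UMIs 10.0%. Median depth of Drd2+ nuclei was 5365 UMIs in PWK/PhJ and 5550 to 6440 in the other strains, before thinning. All these shares stood above the 2.23% of oligodendrocytes.

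Among Drd1+ neurons, nuclei with a Reln UMI leaned to genes listed for striatal patches (striosomes), islands set within the larger matrix compartment. The thinned nuclei of each mouse were split into those with (8903 in all) and without (6357) a Reln UMI, and log2 ratios were taken with 10 CPM added. Sema5b was higher with Reln in 29 of 32 mice (mean log2 ratio 0.54 ± 0.56), Tac1, the substance P precursor, in 28 (0.24 ± 0.21), Oprm1, the mu opioid receptor, in 25 (0.34 ± 0.49) and Kremen1 in 25 (0.27 ± 0.39). Lypd1 was higher in 24 mice (0.28 ± 0.46) and Pdyn, the dynorphin precursor, in 14 (0.02 ± 0.34). The 4 listed matrix genes went the other way, with Sgk1 higher with Reln in 6 mice (−0.22 ± 0.18), Sv2b in 7 (−0.17 ± 0.26), Epha4 in 9 (−0.12 ± 0.17) and Id4 in 12 (−0.16 ± 0.45). These differences are a description of nuclei drawn from the same libraries.

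In Nxph1+ interneurons, 101 thinned nuclei with a Reln UMI were set against 972 without, pooled over mice, with exact Poisson intervals for counting error. Sst, the somatostatin gene, was at 327 CPM (253 to 416) with Reln and 102 CPM (88.2 to 117) without. Npy was at 74.3 (41.6 to 122) and 34.0 CPM (26.3 to 43.2), where the intervals overlap, and Nos1 at 44.6 (20.4 to 84.6) and 11.8 CPM (7.50 to 17.7). Kit went the other way at 59.4 (30.7 to 104) and 218 CPM (198 to 240), and Pthlh, typical of the parvalbumin class, at 4.95 (0.125 to 27.6) and 45.8 CPM (36.8 to 56.3). Of 16 listed interneuron genes, Sst and Nos1 were higher and Kit and Pthlh lower with a Reln UMI, with intervals that do not overlap. The intervals of the other 12 overlapped, among them Pvalb itself at 9.90 (1.20 to 35.8) and 22.6 CPM (16.4 to 30.4). Only 1 mouse had enough nuclei for a ratio within it, so the spread between mice is not given. UMIs of the same nucleus or mouse are not independent, so intervals that do not overlap are no test of a difference.

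Of the members not chosen for a strain pattern, Lrp8 differed most between strains, and did so in both main neuron clusters. In Drd1+ neurons its level was 26.4, 31.4, 27.6 and 29.7 CPM in PWK/PhJ (28.8 ± 2.19, n = 4) and 26.0, 25.8, 26.9 and 26.8 CPM in CAST/EiJ (26.4 ± 0.571). NOD/ShiLtJ held 9.31, 11.4, 7.91 and 8.53 CPM (9.29 ± 1.52), below every other mouse, the lowest of which was at 11.9 CPM. PWK/PhJ thus stood 3.10-fold above NOD/ShiLtJ, and PWK/PhJ and CAST/EiJ overlapped. The strain term was called at an adjusted p of 5.0e-12 (edgeR quasi-likelihood test over 7 degrees of freedom of strain, batch as a block, Benjamini-Hochberg over the cluster). Of 13431 genes tested in Drd1+ neurons, 61.7% were called by the same test. Read against a background that wide, the call of Lrp8 is one of many, while its strain means spanned 1.58 on the log2 scale against a median of 0.63 over all genes tested. Those genes were not matched to Lrp8 for level.

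Against the mean of the other 7 strains, Lrp8 in Drd1+ neurons was lower in NOD/ShiLtJ (log2 −1.04 ± 0.13 SE, adjusted p = 5.4e-08, edgeR) and in NZO/HlLtJ (−0.44 ± 0.11, 0.0036). It was higher in PWK/PhJ (0.81 ± 0.09, 2.7e-09) and in CAST/EiJ (0.66 ± 0.10, 6.0e-07), and WSB/EiJ did not pass (0.27 ± 0.10, 0.066). In Drd1+ neurons these contrasts called 12.3% of genes for 129S1/SvImJ, 17.2% for A/J, 13.9% for C57BL/6, 32.8% for CAST/EiJ, 15.9% for NOD/ShiLtJ, 19.7% for NZO/HlLtJ, 34.4% for PWK/PhJ and 16.9% for WSB/EiJ. Of the 24 contrasts of Vldlr, Lrp8 and Dab1 there, 6 were called, the others being Dab1 and Vldlr in CAST/EiJ.

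In Drd2+ neurons Lrp8 was at 23.5, 22.4, 23.4 and 23.0 CPM in PWK/PhJ (23.1 ± 0.503) and 29.6, 15.9, 22.2 and 20.7 CPM in WSB/EiJ (22.1 ± 5.65). NOD/ShiLtJ was lowest at 10.7, 16.1, 14.8 and 10.3 CPM (12.96 ± 2.89), overlapping other strains, and CAST/EiJ stood at 17.3 ± 1.08 CPM, below PWK/PhJ in every mouse. This strain difference was called (adjusted p = 5.6e-04, edgeR), as was that of 55.9% of 12799 genes. PWK/PhJ (log2 0.51 ± 0.13, adjusted p = 0.0022, edgeR), WSB/EiJ (0.46 ± 0.13, 0.0078) and NOD/ShiLtJ (−0.43 ± 0.15, 0.045) were called against the other strains, and no other contrast of the 24 in Drd2+ neurons was. These contrasts called 11% of genes for 129S1/SvImJ, 15.2% for A/J, 11.1% for C57BL/6, 28.1% for CAST/EiJ, 12.1% for NOD/ShiLtJ, 18.5% for NZO/HlLtJ, 30.3% for PWK/PhJ and 15.3% for WSB/EiJ. Without batch 1 the number of contrasts called fell from 3 to 1, and with libraries thinned to the same total it was also 1.

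**Figure D4:**
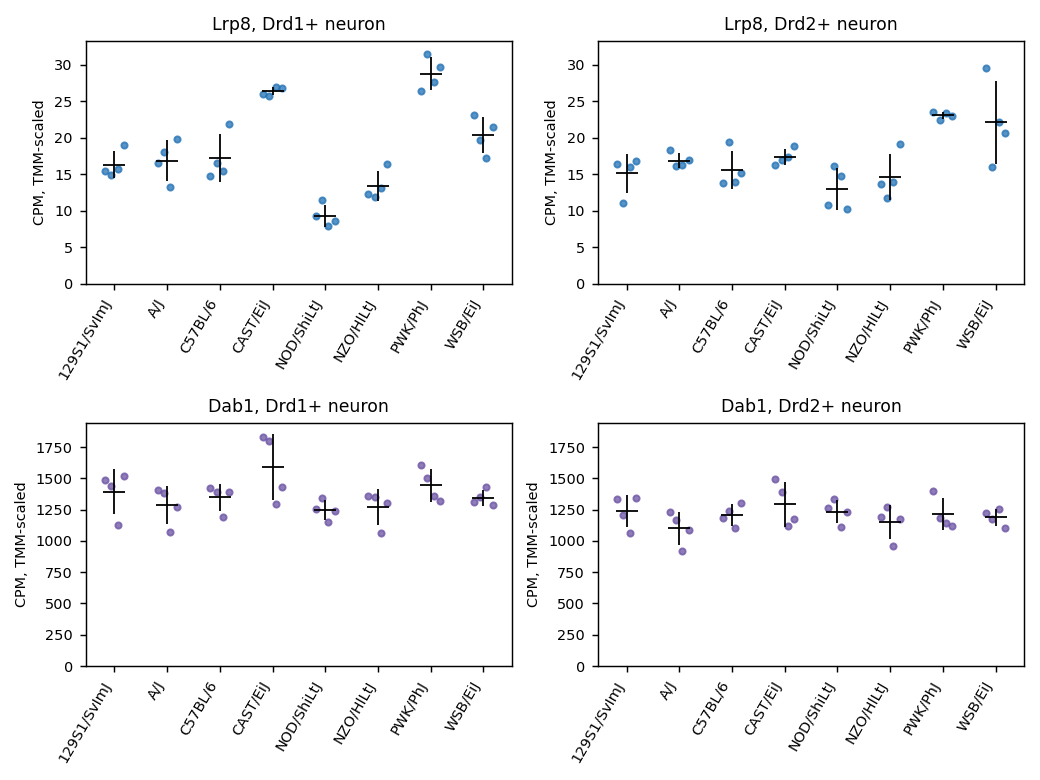
Lrp8 (top) and Dab1 (bottom) by strain in Drd1+ (left) and Drd2+ (right) neurons, in TMM-scaled CPM with axes from 0. Points are the 4 mice of a strain, lines the mean and 1 SD. Lrp8 in Drd1+ neurons is low in NOD/ShiLtJ and high in CAST/EiJ and PWK/PhJ, and the strains overlap for Dab1.

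Dab1 varied little between strains in the main neurons. In Drd1+ neurons CAST/EiJ held 1833, 1798, 1296 and 1435 CPM (1590 ± 266, n = 4) and NOD/ShiLtJ 1258, 1340, 1147 and 1241 CPM (1246 ± 79.2), which overlapped, a 1.28-fold difference of means. The strain term was called (adjusted p = 9.5e-04, edgeR), and CAST/EiJ was called against the others (log2 0.25 ± 0.05, adjusted p = 2.7e-04). Without the replicate block of batch the strain term gave an adjusted p of 0.078 and without batch 1 it gave 0.056, both above the threshold of 0.05. In Drd2+ neurons the strain means ran from 1101 ± 133 in A/J to 1291 ± 178 in CAST/EiJ and were not called (adjusted p = 0.16, edgeR).

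Vldlr in Drd1+ neurons ran from 52.0 ± 5.39 CPM in CAST/EiJ (56.7, 46.4, 48.4 and 56.5) to 65.2 ± 5.04 CPM in C57BL/6 (62.0, 72.7, 62.8 and 63.2). The strain term did not pass (adjusted p = 0.087, edgeR), while the single contrast of CAST/EiJ did (log2 −0.24 ± 0.09, adjusted p = 0.034). In Drd2+ neurons the lowest strain was A/J at 45.3, 39.2, 46.7 and 44.6 CPM (44.0 ± 3.26). The highest was NZO/HlLtJ at 59.7, 58.3, 50.3 and 53.1 CPM (55.4 ± 4.37). These extremes of 8 strains did not overlap, but neither was called against the other strains (adjusted p = 0.064 and 0.22, edgeR). The strain term was called there (adjusted p = 0.022, edgeR) and was lost without batch 1, 2 or 4 (0.060, 0.21 and 0.083), with no filter on low counts (0.051) and with thinned libraries (0.055). Across the members other than Reln, 2 of 3 were called in each of the main neuron clusters, a share near the 61.7% of all genes in Drd1+ and 55.9% in Drd2+ neurons.

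Whether the strains differed otherwise in Drd2+ than in Drd1+ neurons was tested by the interaction of strain and cluster with the mouse as a block. The interaction called 4.55% of 13791 genes. Dab1 was called (adjusted p = 3.1e-05, edgeR), with small differences. In NOD/ShiLtJ its log2 difference of Drd2+ from Drd1+ neurons was 0.01, −0.01, −0.05 and −0.01 (mean −0.02 ± 0.02), above all other mice, the highest of which was at −0.08. In CAST/EiJ it was −0.30, −0.37, −0.22 and −0.29 (−0.29 ± 0.06), and over all strains −0.18 ± 0.09. Without the replicate block of mouse the adjusted p was 1, so this call rests on the comparison within mice.

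Lrp8 was also called by the interaction (adjusted p = 0.024, edgeR). Its log2 difference was 0.21, 0.49, 0.87 and 0.28 in NOD/ShiLtJ (0.46 ± 0.29), where Drd2+ neurons held more, and −0.64, −0.58, −0.60 and −0.48 in CAST/EiJ (−0.58 ± 0.07), where they held less. PWK/PhJ lay at −0.30 ± 0.14 and the other strains at means of −0.11 to 0.13. The call was lost in 8 of 11 alternatives, among them the test without the replicate block (adjusted p = 0.34), DESeq2 (0.13) and each omission of a batch (0.083 to 0.23). Vldlr did not pass (adjusted p = 0.079, edgeR) and passed only with thinned libraries (0.0035), and its log2 difference was lowest in NOD/ShiLtJ (−0.54 ± 0.22) and highest in PWK/PhJ (−0.02 ± 0.15).

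Outside the main neurons, the strain term of Dab1 was called in Drd1+ neuron_2, astrocytes and oligodendrocytes. In Drd1+ neuron_2 the highest strain was C57BL/6 at 1212, 1327, 1204 and 1253 CPM (1249 ± 56.3). The lowest was WSB/EiJ at 794, 643, 576 and 649 CPM (665 ± 92.1), 1.88-fold apart without overlap. NOD/ShiLtJ was also low at 755 ± 88.6 CPM. Here the strain term was called (adjusted p = 6.7e-09, edgeR), as for 17.5% of 5544 genes, and in each of 11 alternatives. In astrocytes the highest strain was CAST/EiJ at 688, 692, 651 and 570 CPM (650 ± 56.7). The lowest was PWK/PhJ at 380, 387, 330 and 405 CPM (375 ± 32.3), without overlap. That term was called (7.7e-06) beside 21.5% of 8207 genes, and at 0.0053 among nuclei with no projection neuron marker. In oligodendrocytes NOD/ShiLtJ held 54.9, 79.3, 61.6 and 96.0 CPM (73.0 ± 18.5) and CAST/EiJ 29.1, 50.3, 5.06 and 30.9 CPM (28.9 ± 18.6). This difference of 2.53-fold at a low level was called (4.5e-04) beside 34.8% of 9082 genes, but at 0.13 without batch 4.

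Vldlr in oligodendrocytes, the cluster of its highest level, was 191, 172, 201 and 167 CPM in NZO/HlLtJ (183 ± 15.8), 181 ± 11.5 in NOD/ShiLtJ and 179 ± 14.6 in C57BL/6. CAST/EiJ held 124, 106, 142 and 119 CPM (123 ± 14.6) and PWK/PhJ 109, 124, 136 and 129 CPM (124 ± 11.5), below all mice of the former 3 strains. Strain was called (adjusted p = 1.6e-04, edgeR) and also among nuclei without a projection neuron marker (0.0019), but not with libraries thinned to the same total (0.067). Lrp8 was too low in oligodendrocytes to pass the filter, and Reln, at 8.27 to 13.9 CPM by strain, was not called (0.79).

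Lrp8 in endothelium was 230, 347 and 265 CPM in CAST/EiJ (281 ± 60.2, n = 3), above every other mouse, the highest of which held 196 CPM. The means of the other strains were 65.8 ± 26.1 in NOD/ShiLtJ to 118 ± 62.1 in NZO/HlLtJ. CAST/EiJ, A/J and WSB/EiJ had no batch 3 library. Over all endothelial nuclei Lrp8 was 43.8 CPM in batch 3 and 113 to 126 CPM in the others, and the means of NOD/ShiLtJ and NZO/HlLtJ include batch 3. The strain term was called (adjusted p = 0.0023, edgeR) beside 3.29% of 4986 genes, and was lost without batch 1 (0.067), without batch 2 (0.086) and with the middle 80% of UMIs (0.079). In endothelial nuclei with no projection neuron marker CAST/EiJ held 378 CPM (50 counts, Poisson interval 281 to 498) and the other strains 88.3 to 183 CPM. The intervals of PWK/PhJ (89.2 to 320, 11 counts) and NZO/HlLtJ (104 to 297, 16 counts) overlapped that of CAST/EiJ, and those of the remaining strains did not. These intervals cover counting error of counts pooled over mice and leave out the spread between mice. Their overlap, or its absence, is therefore no test of a difference between strains. Astrocyte Lrp8, highest in NZO/HlLtJ at 88.9 ± 23.9 and lowest in WSB/EiJ at 44.0 ± 23.7 CPM, was called (0.041) but not in 6 of 11 alternatives, DESeq2 (0.12), nuclei with no marker (0.43) and the omission of batch 4 (0.70) among them.

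Reln outside the main neurons was called in a pair of clusters. In Drd1+ neuron_2, CAST/EiJ held 121, 168, 40.4 and 114 CPM (111 ± 52.8) and C57BL/6 28.4, 29.2, 12.9 and 0 CPM (17.6 ± 14.0), with 102 and 16 counts in all. The strain term was called (adjusted p = 0.0046, edgeR) and was lost without batch 1 (0.087). In the precursor cluster the term was called (0.036) beside 1.24% of 2099 genes, from 37 counts in NZO/HlLtJ, 58 in A/J, 4 in NOD/ShiLtJ and 1 in PWK/PhJ. All of these counts lay in nuclei with a projection neuron marker. Over all nuclei of the cluster, the summed markers of these strains stood at 1713, 1672, 763 and 904 CPM and Reln at 260, 169, 14.5 and 32.7 CPM. In 129S1/SvImJ the markers were higher still, at 1780 CPM, with Reln at 70.5 CPM. The call was lost without batch 1, 2 or 4 (0.17, 0.30 and 0.46) and without the replicate block (0.15). Endothelial Reln was not called (0.32, unadjusted p = 0.042, edgeR). It varied with batch, at 338 CPM in batch 3 and 108 to 146 CPM in the others, with summed projection neuron markers of 3319 against 1416 to 1661 CPM. By strain CAST/EiJ was lowest, at 43.1, 37.2 and 44.2 CPM in batches 1, 2 and 4, below every other mouse. It had no batch 3 library. In Nxph1+ interneurons 0 of 4 members were called by edgeR (adjusted p of 0.71 to 0.92) or by DESeq2, and 0 had an unadjusted p under 0.05, where 1.4% of 3987 genes were called.

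**Figure D5:**
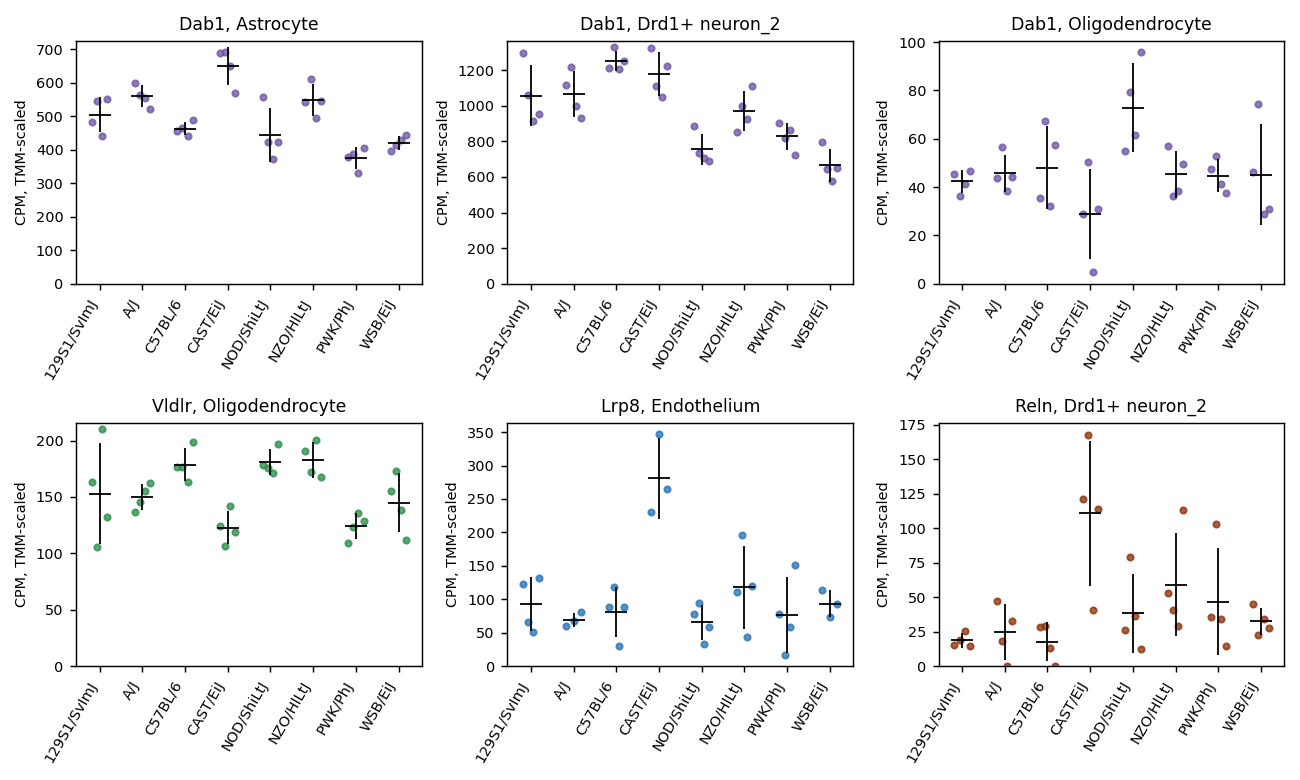
Members by strain in other clusters: Dab1 in astrocytes, Drd1+ neuron_2 and oligodendrocytes, Vldlr in oligodendrocytes, Lrp8 in endothelium and Reln in Drd1+ neuron_2 (TMM-scaled CPM, axes from 0). Points are mice, lines the mean and 1 SD. CAST/EiJ stands high for Dab1 in astrocytes and for Lrp8 in endothelium, and low for Vldlr and Dab1 in oligodendrocytes.

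Around the members, 73 further genes of the pathway were listed in 8 groups by role. The strain term has no direction, so they are counted as called or not. In Drd1+ neurons 35 of 63 tested were called and in Drd2+ neurons 32 of 62, against 61.7% and 55.9% of all genes, so the list held no more calls than its background. The median F statistic was 2.79 for the list and 3.38 for all genes in Drd1+ neurons, and 2.70 and 2.95 in Drd2+ neurons. Strain means of the list spanned a median of 0.38 on the log2 scale in Drd1+ neurons, against 0.63 for all genes. The genes compared were not matched for level. In oligodendrocytes 26 of 59 were called, beside 34.8% of all genes, and in astrocytes 12 of 53, beside 21.5%. In Drd1+ neuron_2 6 of 44 were called, beside 17.5%, and in endothelium 2 of 40, beside 3.29%. Nxph1+ interneurons had 0 of 32 and the precursor cluster 0 of 19 called, beside 1.4% and 1.24%. Macrophages had 11 of 36 called, with a median F of 1.31 for the list and 1.45 for all genes, and the share of all genes is not given there. Without batch 2 the counts were 23 in Drd1+ and 19 in Drd2+ neurons, and 6 in astrocytes, where they were 7 without batch 1 or batch 4. With thinned libraries they were 13 in oligodendrocytes and 4 in astrocytes. The shares of all genes called under these settings are not given, so these lower counts are not read as a result about the list.

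Of 8 listed proteases that cut Reelin and their inhibitors, 5 were tested in the main neuron clusters and all 5 were called in both, beside 61.7% of all genes in Drd1+ and 55.9% in Drd2+ neurons. In oligodendrocytes 3 of 5 were called, in endothelium 1 of 3 and in Drd1+ neuron_2 1 of 2, where 34.8%, 3.29% and 17.5% of all genes were called. The other clusters had at most 2 of them tested. Adamts3, which cleaves and inactivates Reelin, was lowest in PWK/PhJ, at 257 ± 27.6 CPM in Drd1+ and 237.8 ± 13.9 in Drd2+ neurons (n = 4), below every other mouse in both. NOD/ShiLtJ was highest at 431 ± 44.7 and 420 ± 47.1 CPM (adjusted p = 8.7e-11 and 1.6e-12, edgeR). Adamts2, a relative with the same action, ran from 29.4 ± 5.32 CPM in A/J to 8.37 ± 3.28 in NZO/HlLtJ in Drd1+ neurons (4.8e-13), and from 11.5 ± 3.03 to 2.10 ± 0.814 CPM in Drd2+ neurons (0.0082), where the call was lost in 1 of 11 alternatives (0.062). Timp3, an inhibitor of extracellular proteases, was highest in CAST/EiJ, 64.4 ± 5.00 CPM in Drd1+ neurons, above every other mouse, and lowest in PWK/PhJ, 27.8 ± 3.32 CPM, below every other mouse (6.4e-10).

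Of other ligands and extracellular partners 3 of 5 were called in Drd1+ neurons (2 with DESeq2), near the 61.7% of all genes. In Drd2+ neurons 0 of 5 were called by edgeR or by DESeq2, beside 55.9% of all genes, and 0 had an unadjusted p under 0.05. The interaction called 0 of 6 tested in this group, beside 4.55% of all genes, so no gene of it was called as differing between clusters. A difference over the group as a whole was not tested. Efnb3, an ephrin B ligand reported to bind Reelin, was at 33.6 ± 5.19 CPM in C57BL/6 and 20.2 ± 2.50 in PWK/PhJ in Drd1+ neurons and was called there (adjusted p = 2.5e-04, edgeR). It was not called in Drd2+ neurons (0.19) or by the interaction (0.23). Related receptors and co-receptors had 4 of 8 called in Drd1+ and 5 of 8 in Drd2+ neurons. Among them Lrp1, an endocytic relative of Vldlr and Lrp8, was highest in NZO/HlLtJ, 135 ± 14.97, and lowest in 129S1/SvImJ, 91.2 ± 7.08 CPM, in Drd2+ neurons (1.2e-06). In Drd1+ neurons the same strains held 132 ± 14.4 and 104 ± 9.75 CPM (adjusted p = 5.5e-04, edgeR), a call lost in 1 of 11 alternatives. Receptor traffic had 2 of 5 and 2 of 4 called. These counts and those of the receptors stand beside 61.7% and 55.9% of all genes.

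Inside the cell, kinases and adaptors at Dab1 had 5 of 13 called in each of both main clusters, below the 61.7% and 55.9% of all genes, against which the counts of the next groups are also to be read. Nck2, an adaptor for phosphorylated Dab1, was lowest in CAST/EiJ, 26.1 ± 3.98 CPM in Drd1+ neurons against 44.4 ± 3.04 in A/J (adjusted p = 6.1e-05, edgeR). The route from phosphatidylinositol 3-kinase to Gsk3b and Tau had 7 of 10 and 6 of 10 called. Its regulatory subunit Pik3r1 ran from 44.2 ± 7.65 CPM in CAST/EiJ to 76.0 ± 6.12 in 129S1/SvImJ (7.4e-06). Cytoskeletal and Lis1 genes had 4 of 10 and 5 of 10, and genes of Dab1 turnover 5 of 7 and 4 of 7. Socs6, a substrate receptor of the ligase that degrades Dab1, was at 45.9 ± 6.04 CPM in CAST/EiJ and 100.3 ± 17.2 in A/J (6.0e-11), 2.18-fold apart.

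The interaction called 3 of 64 list genes, beside 4.55% of all genes: Adamts2 (adjusted p = 0.011, edgeR), Yes1, a Src family kinase (0.027), and Timp3 (0.048). Yes1 was highest in NOD/ShiLtJ in both clusters, 44.8 ± 7.63 CPM in Drd1+ and 49.9 ± 6.66 in Drd2+ neurons. Its lowest strain was 129S1/SvImJ in Drd1+ neurons, 33.6 ± 3.22 CPM, and WSB/EiJ in Drd2+ neurons, 27.6 ± 6.52 CPM. Unadjusted, 9 list genes had a p under 0.05 by edgeR and 8 by DESeq2, which called 0 after adjustment, and edgeR called 0 or 1 on omission of any batch. The shares of all genes called under these alternatives are not given.

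Genes most like each member were listed by Pearson r of log2 CPM as a description. Over the 18 clusters (15710 genes, clusters sharing libraries and depth), Reln was most like Ankdd1a (0.96), Sh3rf2 (0.95) and Gm34081 (0.91), and Dab1 like Grid1 (0.97), Adgrb3 (0.95) and Nrg2 (0.95). Vldlr was most like Gm35438.1 (0.79), Atp11a (0.79) and Srd5a1 (0.78), and Lrp8 like Lrp8os2 (0.90), Gm26803 (0.81) and Armcx4 (0.77). Lrp8os2 is a long noncoding RNA gene inside Lrp8 and Gm35438 one that spans Vldlr, and the strand used in counting is not given in the sources used here, so reads of such pairs could be shared. Over the 32 mice in Drd1+ neurons, batch means removed (9223 genes), Lrp8 was most like Cep295 (0.86), Sv2b (0.84) and Snx14 (0.84), and Reln like Strn3 (0.85), Osbpl8 (0.84) and Gpm6b (0.83). For Dab1, Phactr1 (0.81) and Chn1 (0.77) were among the first, and for Vldlr the first were Ncald (0.66), 4930587E11Rik (0.64) and Ndufaf7 (0.64).

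Of the protein-coding neighbours of the members, the nearest tested pair on each side, the strain term called 11 of 16 in Drd1+ neurons, beside 61.7% of all genes. At Lrp8, Czib (adjusted p = 4.3e-12, edgeR), 12945 bases away, was called, and Magoh (0.35), 2915 bases away, Glis1 (0.058) and Ndc1 (0.17) were not. At Reln, Slc26a5 (2.6e-09), 18850 bases away, Psmc2 (0.032) and Lhfpl3 (2.5e-04) were called and Orc5 (0.11) was not.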

How the data were processed

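The authors deposited RNA matrices of raw UMI counts, without normalization. Per the submitters' processing notes, Cell Ranger ARC 2.0.0 and bcl2fastq 2.20.0.422 were used with mm10 (GRCm38), and the use of strand in counting is not given in the sources used here. The authors' deposited table of categories gave the strain, batch and cluster of each barcode, doublets removed, and was used unchanged. No column of these files was left unmapped. The deposited peak list was used for positions only, and accessibility of single nuclei was not analysed here.

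Counts were summed per mouse and cluster, with at least 10 nuclei per library. A cluster was tested if 3 mice of each strain remained, which held for 9 clusters. In edgeR 4.0.16 (R 4.3.3) genes were filtered with filterByExpr by strain, scaled by TMM and fitted with strain and batch by robust quasi-likelihood, with Benjamini-Hochberg adjustment over the genes of each cluster and a threshold of 0.05 for a call. The labels say that each batch pooled 1 mouse of every strain, which is where the pairing by batch comes from. The interaction had the mouse as a block. Log2 CPM used a prior count of 2. Thinning drew 2000 UMIs per nucleus without replacement (Python 3.11.15, numpy 2.4.6). Macrophages were tested, but no member passed the filter there, nor did Lrp8 in oligodendrocytes and the precursor cluster, Reln and Vldlr in astrocytes or Vldlr in endothelium. The fits were tested on simulated data before use.

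The members and lists were chosen with earlier results of these data known. Named pathway genes are, in each of the 8 groups, from the pair with the smallest p of the strain term in Drd1+ neurons, plus those called by the interaction. Genes most like a member are the 3 with the highest Pearson r, of which 1 is not reported here. Alternatives were DESeq2 1.42.0 and its size factors, no filter, 30 nuclei per library, no replicate block, omission of each batch, the middle 80% of UMIs, thinned libraries and, chosen after seeing the data, nuclei without a projection neuron marker.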

Additional observations from a re-analysis of the deposited data

Results flagged for a closer look

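In 8 of 192 groups of 4 mice, 1 mouse lay apart from the other 3 of its strain by Dixon's criterion, which chance meets in about 1 in 20 groups. In Drd1+ neurons these were a C57BL/6 mouse high for Vldlr (72.7 CPM), a C57BL/6 mouse low for Dab1 (1189 CPM) and a NOD/ShiLtJ mouse high for Reln (649 CPM). The C57BL/6 mouse low for Dab1 was of batch 3. That batch was also lowest for Dab1 in 129S1/SvImJ, A/J, CAST/EiJ, NOD/ShiLtJ and NZO/HlLtJ, but not in PWK/PhJ or WSB/EiJ. In Drd2+ neurons a 129S1/SvImJ mouse was low for Lrp8 (11.04 CPM). In Nxph1+ interneurons a CAST/EiJ mouse was low for Reln (16.1 CPM) and a WSB/EiJ mouse high (491 CPM). In endothelium the 129S1/SvImJ mouse of batch 3 was high for both Reln (330 CPM) and Dab1 (1131 CPM).

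The strain effect differed between Drd2+ and Drd1+ neurons by the interaction in edgeR for Dab1 (adjusted p = 3.09e-05), Lrp8 (0.0241), Adamts2 (0.0108), Yes1 (0.0267) and Timp3 (0.0483), beside 4.55% of all genes. The call of Lrp8 was lost in 8 of 11 alternatives, the adjusted p of Dab1 was 1 without the replicate block, and DESeq2 called 0 of 64 list genes, 8 of which had an unadjusted p under 0.05. The share of all genes called by DESeq2 is not given.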

How the results depend on the processing

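Of 375 recomputed main values, 321 were unchanged, which includes results not called in either setting. Another 32 lost their call, 20 moved (counts by over 1.5 times, levels by over 1 SD) and 2 passed only in the alternative. Only the Reln difference within mice has a direction that could reverse, and it kept its sign. Reln was chosen by this difference in the same counts, so the kept sign is no support for it. Of 106 for single named genes, 80 were unchanged, 17 lost their call and 9 levels moved by more than 1 SD. The strain term of Lrp8 was called under all alternatives run in Drd1+ and in Drd2+ neurons (adjusted p up to 2.1e-08 and 0.050 in edgeR or DESeq2), as was that of Dab1 in Drd1+ neuron_2 and astrocytes. The cause of the changes below was not tested. Adjusted p without the replicate block of batch or mouse was 0.078 for Dab1 in Drd1+ neurons, 0.15 for Reln in the precursor cluster, 0.055 for astrocyte Lrp8, 0.34 for the Lrp8 interaction and 1 for the Dab1 interaction. DESeq2 gave 0.12 for astrocyte Lrp8 and 0.13 for the Lrp8 interaction. With no filter on low counts it was 0.051 for Vldlr in Drd2+ neurons and 0.016 for endothelial Reln. With the middle 80% of UMIs it was 0.094 for astrocyte Lrp8, 0.079 for endothelial Lrp8 and 0.11 for the Lrp8 interaction. With thinned libraries it was 0.055 for Vldlr in Drd2+ neurons, 0.067 for Vldlr in oligodendrocytes, 0.40 for the Lrp8 interaction and 0.0035 for the Vldlr interaction. Among nuclei without a projection neuron marker, an alternative chosen after seeing the data, it was 0.43 for astrocyte Lrp8.

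Omission of 1 batch at a time gave adjusted p of 2.7e-04 to 0.056 for Dab1 in Drd1+ neurons, 0.011 to 0.21 for Vldlr in Drd2+ neurons, 0.017 to 0.46 for Reln in the precursor cluster, 3.6e-04 to 0.13 for Dab1 in oligodendrocytes, 0.016 to 0.70 for astrocyte Lrp8, 1.6e-05 to 0.087 for Reln in Drd1+ neuron_2, 0.0065 to 0.086 for endothelial Lrp8 and 0.083 to 0.23 for the Lrp8 interaction. The list genes called were 23 to 31 of the pathway in Drd1+ neurons, 19 to 28 in Drd2+ neurons, 6 to 13 in astrocytes and 0 to 1 by the interaction, and the member contrasts called in Drd2+ neurons 1 to 3. With thinned libraries 13 list genes were called in oligodendrocytes, 4 in astrocytes and 1 by the interaction, and 1 contrast in Drd2+ neurons. Without a marker UMI 7 were called in astrocytes. The interaction called 0 list genes with DESeq2, 0 without the replicate block and 1 with the middle 80% of UMIs. For none of these counts of list genes is the share of all genes under the same setting given. A change in them is therefore not read as a result about the list. Drd2+ nuclei of PWK/PhJ with a Reln UMI were 10.0% at 1000 UMIs and 34.3% without thinning.

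Fits with 30 nuclei per library in the precursor, Nxph1+ and endothelial clusters, with the middle 80% of UMIs in the precursor cluster, and without marker nuclei in these clusters and Drd1+ neuron_2 left too few mice and were not run, nor were contrasts with DESeq2. Libraries of small clusters limit what can be seen: the precursor cluster held 10 to 34 nuclei per mouse and endothelium 14 to 90.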
